A study of Mus musculus with 8 samples.

Results

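The interleukin-6 (IL-6) family was examined through 8 genes, namely the ligands Il6, Il11, Lif, Osm and Clcf1, the receptor chains Il6st and Osmr, and the feedback gene Socs3. They were taken by gene symbol and not by any measured value, and all 8 were found among the 20275 gene symbols of the data. Cytokines of this family signal through receptor complexes that share the chain gp130, which Il6st encodes. The other chains of the complex depend on the ligand, and a cell answers oncostatin M, for example, through gp130 paired with the product of Osmr. Engaged complexes activate JAK kinases and the transcription factor STAT3, and STAT3 switches on Socs3, whose product blocks the same receptors. In tumours of the gut these cytokines are known as signals that pass between immune cells, fibroblasts and epithelium.

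Cells came from mouse colon tumours that grew after tumour organoids were placed in the cecum, and each cell was sorted into its own well of a 384-well plate and profiled by SORT-seq, which counts transcripts from their 3′ ends. There were 8 plates from 8 mice. The 4 mice of the FibCtrl group lacked the Col1a1Cre-ERT2 transgene, and the 4 mice of the Fib-Del group, called FibΔZeb1 here, carried it and are labelled as deleted for Zeb1 in fibroblasts. All 8 mice ate a tamoxifen diet, which starts the recombination, and per the methods of the study both groups carried the conditional Zeb1 allele and were littermates of both sexes. The labels name a Col1a1 driver and the methods a Col1a2 driver. Their age was not given in the sources used here. Since the tumour cells came from transplanted organoids, the driver acts in cells of the host.

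The wells held 981881 to 5.91e+06 cell transcripts per plate, and FibCtrl plate 2 was the shallowest, with a median of 221 per well. All 8 plates use the same 384 well labels, which name positions and not cells. Of 3072 wells, 1831 were kept and 1474 fell into cell classes named from fixed marker genes. Values below are transcripts of a gene per 1000000 transcripts of a class on a plate (CPM), and a plate was used for a class where it held at least 10 wells of it. This gave 146 fibroblast wells (5 plates used), 475 epithelial (8 plates), 174 macrophage (6), 266 neutrophil (7), 178 T cell (7) and 144 B cell wells (3). The 10 fibroblast markers summed to between 62111 and 92870 CPM in fibroblast wells, against 372 to 3022 in epithelial, 594 to 4891 in macrophage and 670.1 to 7118 in neutrophil wells, so a low level of fibroblast transcripts was present in wells of the other classes. Zeb1, the targeted gene, stood at 93.3 and 83.4 CPM in fibroblast wells of FibCtrl plates 1 and 4 and at 43.7, 48.0 and 27.8 CPM on FibΔZeb1 plates 1, 3 and 4. The FibΔZeb1 plates were all lower, with a log2 change of -1.15 ± 0.29 (SE) and an adjusted p of 0.46 in edgeR's quasi-likelihood test.

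Ligand, receptor and response genes each had their own order of cell classes. Osm, the gene of oncostatin M, was highest in neutrophil and macrophage wells. Of the classes compared by plate, Osmr was highest in fibroblast wells, where its range did not overlap that of any of the other 5 classes. Il6 and Lif were found in both fibroblast and macrophage wells, Il6st in fibroblast and T cell wells, and Socs3 in every class. Mesothelial wells, with only 1 plate of at least 10 wells, also held Il6 and Lif. Pooled over plates these were at 181 and 57.6 CPM, beside 108 and 37.5 CPM in pooled fibroblast wells. Mesothelial and pericyte wells held Il6st as well, at 141 and 182 CPM pooled over plates, beside 97.9 CPM in pooled fibroblast wells.

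**Figure D1:**
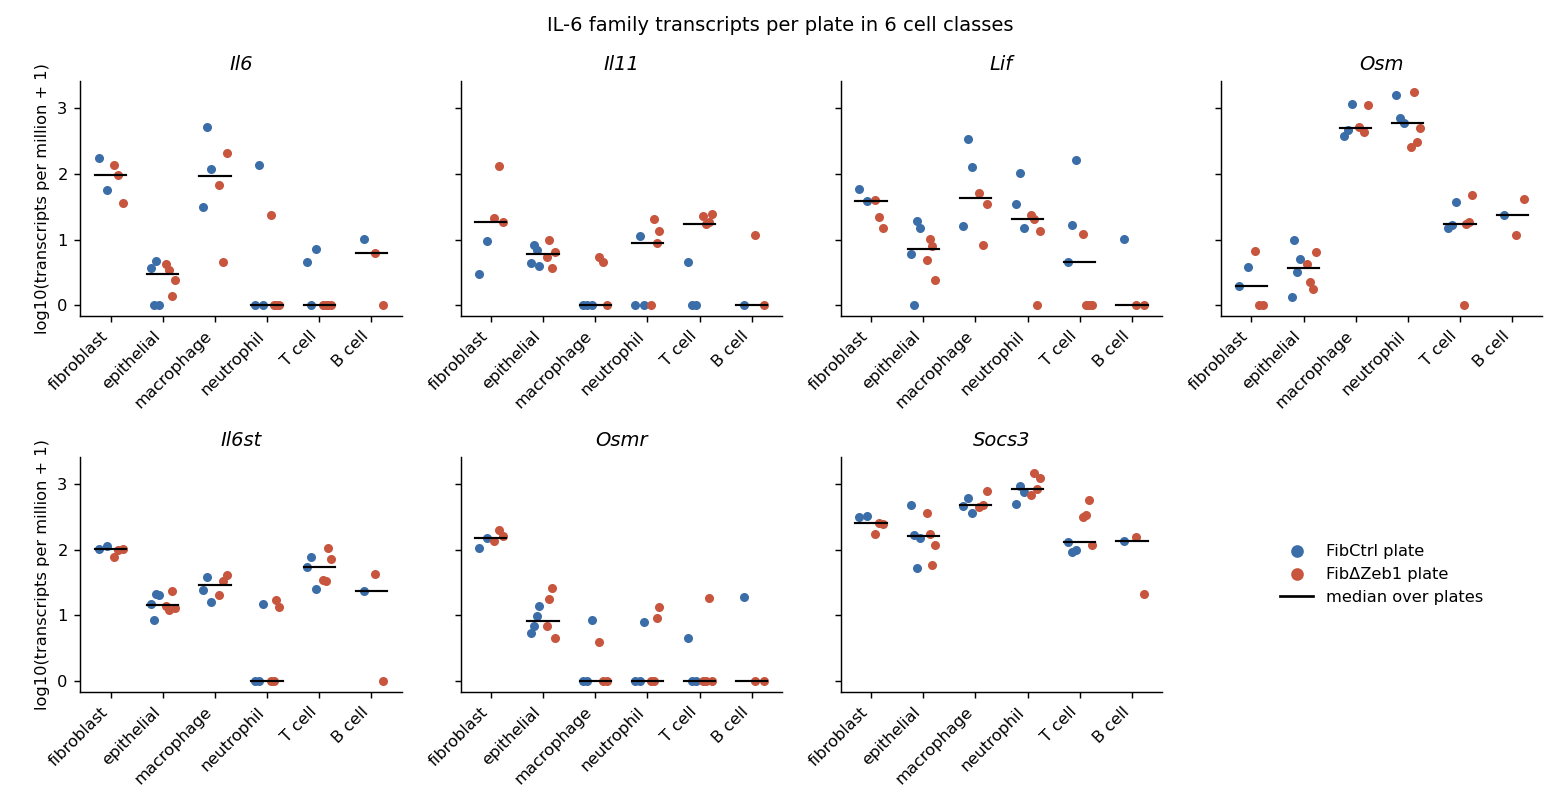
Each point is a plate with at least 10 wells of the class, and the vertical axis is log10 of CPM plus 1. Osm was at 254 CPM or more on every neutrophil and macrophage plate shown, while Osmr was at 105 CPM or more on every fibroblast plate shown and at 24.7 CPM or less on all plates of the other 5 classes.

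Osm lies on mouse chromosome 11 (GRCm38, chr11:4236420-4241026, plus strand). In macrophage wells it measured 383, 464 and 1158 CPM on FibCtrl plates 1, 3 and 4 and 524, 436 and 1131 CPM on FibΔZeb1 plates 1, 3 and 4. The plates numbered 4 were high in both genotypes. In neutrophil wells the level was 1612, 724 and 604 CPM on FibCtrl plates 2, 3 and 4 and 254, 1795, 311 and 497 CPM on FibΔZeb1 plates 1 to 4. The medians of these classes, 604 CPM for neutrophils and 494 CPM for macrophages, had overlapping ranges. Of the classes compared by plate, B cells came next, with a median of 22.8 CPM (10.6 to 40.3) and no overlap with macrophages. Dendritic cell wells, with only 1 plate of at least 10 wells, held Osm at 132 CPM pooled over plates, in 11 of 29 wells. Fibroblast wells held 7 Osm transcripts in all, and their median was 0.992 CPM with a highest value of 5.82. At least 1 Osm transcript was found in 118 of 174 macrophage wells (67.8%) and in 96 of 266 neutrophil wells (36.1%), against 6 of 146 fibroblast wells (4.11%), although the median depth per well was 18659 transcripts in fibroblasts, 8531 in macrophages and 1927 in neutrophils. After each well was thinned to 1000 transcripts, the shares were 62 of 166 macrophage, 61 of 243 neutrophil and 0 of 142 fibroblast wells, which left out 8, 23 and 4 shallower wells.

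Il6 (chr5:30013114-30019981, plus strand) encodes the founding ligand of the family. Fibroblast wells gave 175 and 56.2 CPM on FibCtrl plates 1 and 4 and 135, 94.3 and 34.8 CPM on FibΔZeb1 plates 1, 3 and 4. Macrophage wells spread more widely, with 30.6, 516 and 118 CPM on FibCtrl plates 1, 3 and 4 and 67.6, 3.59 and 209 CPM on FibΔZeb1 plates 1, 3 and 4. The medians, 94.3 CPM in fibroblasts and 92.8 CPM in macrophages, did not differ beyond their spread. Epithelial wells never exceeded 3.64 CPM on any of 8 plates. Neutrophil wells had no Il6 transcript on 5 of 7 plates. The exception, 134 CPM on FibCtrl plate 3, rested on 13 transcripts, and all 13 came from wells with more mast cell than neutrophil marker transcripts. Only the neutrophil class was searched for such wells, and it held 9 of them on 3 plates. Without them the highest neutrophil value of Il6 was 23.1 CPM, from 1 transcript. The 9 wells held 9 of 17 Lif, 4 of 432 Osm and 4 of 555 Socs3 transcripts of the class. The neutrophil medians of Osm and Socs3, 604 and 828 CPM, came from plates without such wells and stayed the same. Plates with such wells rose when they were left out. FibCtrl plate 3 then had 1383 CPM of Osm and 1751 of Socs3, and FibΔZeb1 plate 2 had 2250 and 1898 CPM.

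Lif (chr11:4257557-4272514, plus strand), which encodes leukaemia inhibitory factor, starts 16.5 kb beyond the end of Osm. Its fibroblast values were 58.7 and 37.5 CPM on FibCtrl plates 1 and 4 and 39.3, 21.3 and 13.9 CPM on FibΔZeb1 plates 1, 3 and 4. In macrophages it ranged from 7.19 to 342 CPM around a median of 41.7, and the highest plate, FibCtrl 3, was also the highest for Il6. Epithelial wells had a median of 6.07 CPM (0 to 18.2). T cell wells had a median of 3.53 CPM, and the 160.0 CPM on FibCtrl plate 4 came mostly from 1 well, which held 18 of the 29 Lif transcripts of the class.

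Il11 (chr7:4772373-4782859, minus strand) encodes a ligand that is known from fibroblasts of injured tissue. Fibroblast wells measured 1.98 and 8.63 CPM on FibCtrl plates 1 and 4, from 2 and 6 transcripts. FibΔZeb1 plates 1, 3 and 4 measured 20.4, 131 and 17.4 CPM, from 14, 74 and 5 transcripts. A well of FibΔZeb1 plate 3 held 67 of the 105 fibroblast transcripts of this gene. Without that well the level over all fibroblast wells fell from 30.3 to 11.1 CPM. Epithelial wells had 2.75 to 8.73 CPM on the 8 plates, and 55 of 475 wells held at least 1 transcript, none more than 3.

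Clcf1 (chr19:4214238-4223490, plus strand), the gene of a cardiotrophin-like ligand, gave 2 transcripts in all wells, 1 in an epithelial and 1 in a B cell well of FibΔZeb1 plate 2. In fibroblasts a count of 0 allows up to 0.866 CPM over the pooled wells, counting error only.

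Osmr (chr15:6813577-6874969, minus strand) encodes the chain that binds oncostatin M beside gp130. Its fibroblast level was 105 and 148 CPM on FibCtrl plates 1 and 4 and 135, 196 and 159.9 CPM on FibΔZeb1 plates 1, 3 and 4. Epithelial wells gave 4.40, 5.89, 8.75 and 12.7 CPM on FibCtrl plates 1 to 4 and 5.81, 16.9, 24.7 and 3.46 CPM on FibΔZeb1 plates 1 to 4. The ranges of fibroblasts and epithelium did not overlap. Median levels in macrophage, neutrophil, T cell and B cell wells were 0 CPM, and their highest plates gave 7.60, 12.4, 17.5 and 18.2 CPM. At least 1 transcript was found in 107 of 146 fibroblast wells (73.3%) and 69 of 475 epithelial wells (14.5%), whose median depths were similar, at 18659 and 21794 transcripts per well. After thinning to 1000 transcripts this was 12.7% of 142 and 0.903% of 443 wells. Other stromal wells carried Osmr as well, with 286 CPM over 35 mesothelial wells and 138 CPM over 27 pericyte wells, each pooled over plates.

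Il6st (chr13:112464070-112510086, plus strand), the shared gp130 chain, had the narrowest spread in fibroblasts, at 101.2 and 113.7 CPM on FibCtrl plates 1 and 4 and 77.1, 99.5 and 100.8 CPM on FibΔZeb1 plates 1, 3 and 4. Of the classes compared by plate, T cell wells came next with a median of 53.0 CPM (24.6 to 105), which overlapped fibroblasts. Pooled over plates, Il6st was higher in 27 pericyte wells (182 CPM) and 35 mesothelial wells (141 CPM) than in fibroblast wells (97.9 CPM). Pericytes and mesothelial cells each had only 1 plate of at least 10 wells. Among T cells the cluster led by Ms4a4b and Tcf7 had 122 CPM (95% interval 71.0 to 195, counting error only) and the cluster led by Ctla4 and Icos 32.7 CPM (20.3 to 50.0). Macrophages had a median of 27.6 CPM, B cells 22.8 and epithelium 13.4 CPM (7.36 to 22.8). Neutrophil wells held 5 Il6st transcripts in 266 wells, and their median was 0.

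The ligand-binding partners of gp130 had other orders. Il6ra, the IL-6 receptor, was at 69.5 CPM (42.2 to 114) in epithelium, 80.5 in macrophages and 92.4 in neutrophils, but at 13.9 CPM (7.27 to 20.8) in fibroblasts. Lifr, the receptor for leukaemia inhibitory factor, had medians of 32.5 CPM in epithelium, 41.7 in fibroblasts and 39.1 in macrophages, with overlapping ranges. Il11ra1, which binds interleukin-11, had 12.4 CPM (8.73 to 43.1) in fibroblasts and 1.38 CPM (0.339 to 5.83) in epithelium. Il27ra, a chain of the interleukin-27 receptor, reached 281 CPM (169.7 to 376) in T cells.

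Socs3 (chr11:117966079-117970047, minus strand), the feedback inhibitor, was the most abundant member by transcript number, with 6750 transcripts in all wells. The members' start regions were searched for TTCNNNGAA, the palindromic element that STAT factors bind, which reads alike on both strands. RefSeq start windows of 300 bases (250 before and 50 after a start, GRCm38.p6) were given for 6 members in 7 windows, and 1 of the 7, that of Socs3, held it, against 2726 of 32851 windows of all genes (8.30%). A match describes letters and not binding. The stretch of the Socs3 window that lies upstream of the exons annotated within it is shown because it carries the match, in capitals, on the minus strand at chr11:117969452-117969616, with the match 334 bases before the start of the coding transcript:
Socs3: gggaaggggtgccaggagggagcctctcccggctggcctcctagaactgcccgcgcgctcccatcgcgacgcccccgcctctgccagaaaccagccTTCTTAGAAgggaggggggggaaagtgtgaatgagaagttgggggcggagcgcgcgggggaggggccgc

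The Socs3 level was highest in neutrophils, at 492, 919 and 765 CPM on FibCtrl plates 2, 3 and 4 and 670.1, 1498, 828 and 1218 CPM on FibΔZeb1 plates 1 to 4. Macrophage wells followed with 467, 607 and 362 CPM on FibCtrl plates 1, 3 and 4 and 444, 475 and 774 CPM on FibΔZeb1 plates 1, 3 and 4. These ranges overlapped, while those of macrophages and fibroblasts did not. Fibroblast wells measured 309 and 323 CPM on FibCtrl plates 1 and 4 and 174, 258 and 247 CPM on FibΔZeb1 plates 1, 3 and 4. Epithelial wells spread from 51.8 to 478 CPM around a median of 159 CPM. On FibCtrl plates 1 to 4 they gave 478, 167, 51.8 and 152 CPM, and on FibΔZeb1 plates 1 to 4 they gave 357, 171, 57.4 and 117 CPM. Plates with the same number were thus close in both genotypes, highest at 1 and lowest at 3. Plates 1 and 2 of both genotypes shared a flow cell, as did plates 3 and 4. B cells and T cells had medians of 137 and 131 CPM.

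The spread of Socs3 in epithelium went with the clusters of epithelial wells. The cluster led by Prss56, Rnase1 and Bmp4 had 397 CPM (95% interval 379 to 415), and it supplied 43 of 64 epithelial wells on FibCtrl plate 1 and 35 of 54 on FibΔZeb1 plate 1. The cluster led by Bpifb1 and Bpifb5 had 54.9 CPM (48.3 to 62.1), and it supplied 31 of 44 wells on FibCtrl plate 3 and 41 of 84 on FibΔZeb1 plate 3. Within the first cluster the level was still 488 CPM on FibCtrl plate 1, 332 on FibΔZeb1 plate 1 and 185 on FibΔZeb1 plate 3. All 10 epithelial markers were detected in the first cluster, but none of them was among its 10 leading genes. The other 4 epithelial clusters ranged from 40.5 CPM, in that led by Saa1 and Clca6, to 274 CPM, in that led by the cell cycle genes Pbk and Ccnb2. The share that cluster and plate each had in the spread was not tested.

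Over 36 sums of a class on a plate, the genes most like Socs3 among 7729 compared were Cebpb (Pearson r = 0.83), Emilin2 (0.81), Igsf6 (0.78), Nfil3 (0.78) and Clec4e (0.78). Cebpb and Nfil3 are on the list of STAT3 target genes used below. For Osmr they were Lgi2 (0.93), Bmp1 (0.93), Hspg2 (0.93), Cthrc1 (0.92) and Rhoj (0.91). The sums cover several cell classes, so genes that are high in the same classes score high. Regulation within a class cannot be read from them. Sums of 1 plate share the mouse and library, so these correlations of log2 levels are descriptions.

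Fibroblast, epithelial and pooled immune wells of the same plates were then compared with the plate as a block, on the 5 plates that held at least 10 wells of each (FibCtrl 1 and 4, FibΔZeb1 1, 3 and 4). No member had been used for clustering the wells. Il11 and Clcf1 were too low to be tested. Il6, Lif, Il6st and Osmr were higher in fibroblasts than in epithelium, by log2 values of 6.40 ± 0.76 (SE), 3.0 ± 0.57, 3.05 ± 0.21 and 4.45 ± 0.31 (edgeR adjusted p of 8.1e-06, 6.3e-04, 4.2e-08 and 4.9e-08). Thus 4 of the 6 tested members were called, all 4 higher in fibroblasts, where 44.8% of all genes were called and 23.7% were called higher in fibroblasts. Osm (0.35 ± 0.62, adjusted p = 0.69) and Socs3 (0.77 ± 0.49, adjusted p = 0.23) did not pass the test.

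Immune wells carried far more Osm than fibroblasts or epithelium. The log2 difference of fibroblasts from immune wells was -7.19 ± 0.38 (edgeR adjusted p = 2.0e-08), and that of immune wells from epithelium was 7.54 ± 0.33 (adjusted p = 2.0e-09). Against immune wells, fibroblasts were higher for Osmr (5.20 ± 0.40, adjusted p = 1.3e-07) and Il6st (1.95 ± 0.22, adjusted p = 4.7e-06). Il6 was also higher in fibroblasts than in the pooled immune wells (1.64 ± 0.62, adjusted p = 0.045). In macrophages alone its median of 92.8 CPM was close to the 94.3 CPM of fibroblasts. The Il6 call against the pool held in 8 of 13 alternatives, counting the one without the macrophage cluster richest in Il6. It was lost without FibCtrl plate 1 (1.07), FibΔZeb1 plate 1 (1.65) or FibΔZeb1 plate 3 (1.23), with at least 5 wells per plate (0.82) and without the mitochondrial filter (2.53). Without that macrophage cluster the difference was 3.12 ± 0.55. The cluster was chosen by its Il6 level in these data, so a larger difference was fixed in advance and gives no support. Lif (0.53 ± 0.56) and Socs3 (-0.66 ± 0.48) did not pass against the pool, which includes T cell and B cell wells. By class, Socs3 in macrophages (362 to 774 CPM) lay above fibroblasts (174 to 323 CPM). With 3 members higher and 1 lower, 4 of 6 were called, beside 44.9% of all genes, of which 22.3% of those tested were higher in fibroblasts.

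Between immune and epithelial wells, 5 of 6 members were called, all higher in immune wells, beside 49.4% of all genes called and 25.7% called higher in immune wells. Besides Osm these were Il6 (4.76 ± 0.81, adjusted p = 2.3e-04), Lif (2.46 ± 0.59, adjusted p = 0.0030), Il6st (1.10 ± 0.23, adjusted p = 0.0011) and Socs3 (1.43 ± 0.50, adjusted p = 0.030). The Socs3 call was lost without FibCtrl plate 4 (1.36), FibΔZeb1 plate 3 (0.92) or FibΔZeb1 plate 4 (1.09). Osmr (-0.75 ± 0.48, adjusted p = 0.21) did not pass.

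**Figure D2:**
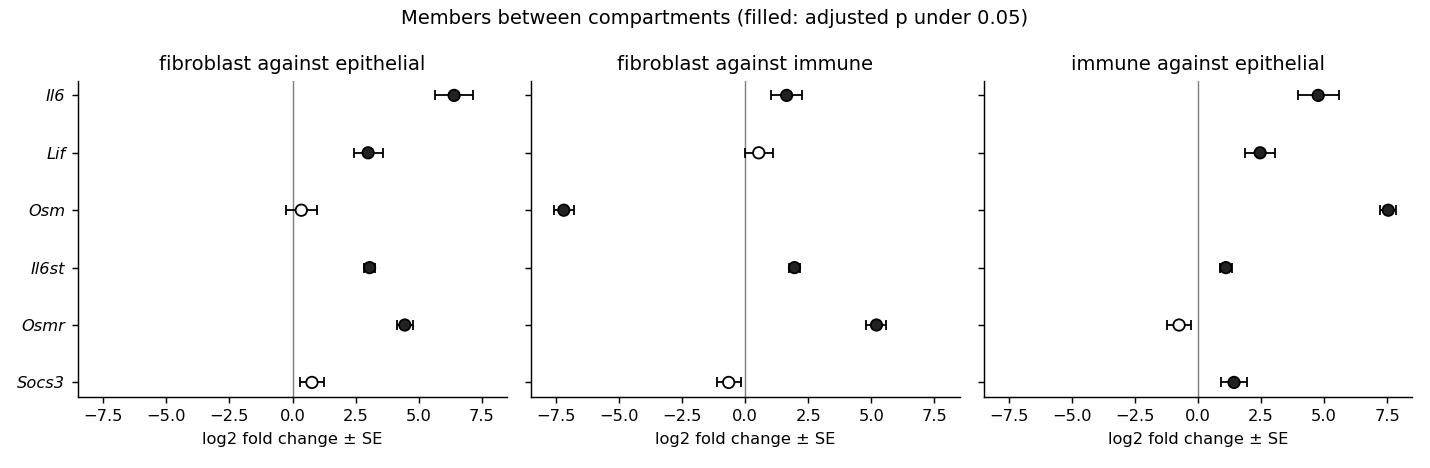
The 6 tested members are shown as log2 fold change (horizontal axis) with its SE between pairs of compartments, and filled points passed an adjusted p of 0.05. Osmr and Osm lie on opposite sides in the middle panel, at 5.20 and -7.19.

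In fibroblasts, transcripts of Il6, Lif and Il11 sat in few wells, and those of the receptor chains in more. Il6 was found in 43 of 146 wells, and the 4 richest held 51.5% of its 374 transcripts. For Lif the 3 richest wells held 52.4% of 130 transcripts, and for Il11 the richest well held 63.6%. By contrast the richest 19 wells held 51.2% of Osmr, the richest 22 held 50.5% of Il6st and the richest 16 held 50.6% of Socs3. In macrophages 55.7% of Il6 was in 4 wells and 54.4% of Lif in 5, but 50.2% of the ligand Osm was in 16 and 50.7% of Socs3 in 31. In pericytes 129 of 157 Il6 transcripts came from 1 well of FibΔZeb1 plate 1, and the pooled level fell from 314 to 61.2 CPM without it. A plate mean of Il6, Lif or Il11 therefore rests on few cells.

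**Figure D3:**
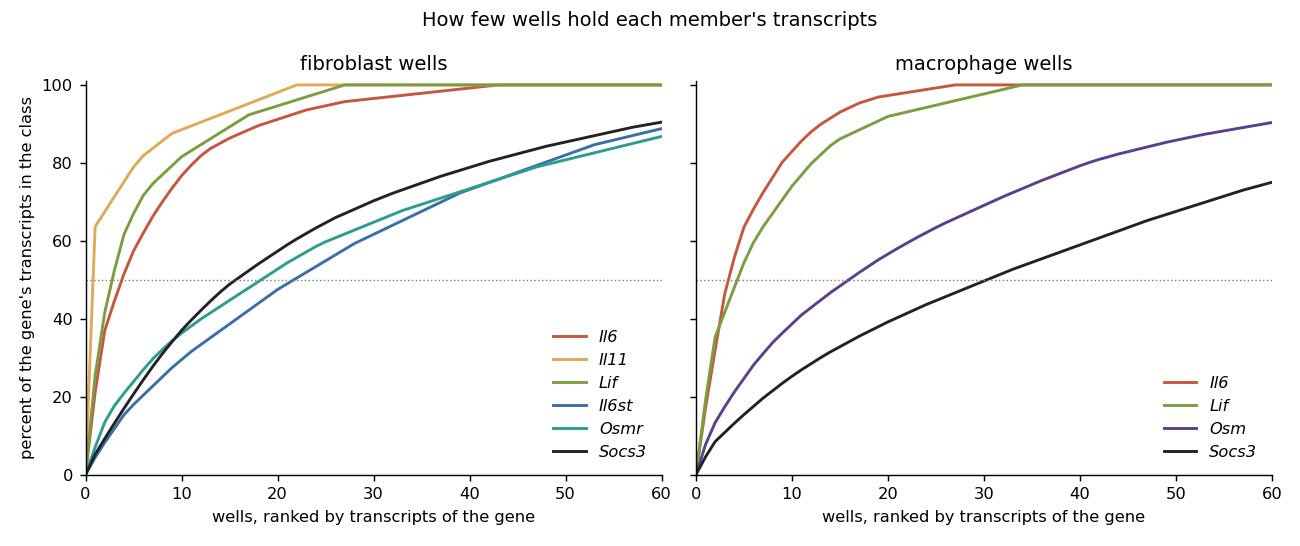
Wells are ranked by the number of transcripts of a gene (horizontal axis), and the curves give the cumulative percent of the gene's transcripts in the class, with a dotted line at 50%. The curves of Il11, Lif and Il6 rise steeply, and those of Osmr, Il6st and Socs3 slowly.

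Within a class the members also differed between clusters, which are given as descriptions. Fibroblasts led by Dpt, Efemp1 and Ptx3 (68 wells) had 149 CPM of Il6, 125 of Il6st and 369.5 CPM of Socs3. Fibroblasts led by Mgp and Tagln (46 wells) had 4.86 CPM of Il6, 38.9 of Il6st and 89.9 of Socs3. The median depth of the first cluster was 24407 transcripts per well and that of the second 5329.7, over all 80 and 52 wells of these clusters before wells with Ptprc or Epcam transcripts were taken out. The third cluster, led by Col10a1, Col8a1 and Tnc (32 wells), lay between for Il6 (78.0 CPM), Il6st (74.6) and Socs3 (165) and had the most Lif (57.7 CPM). Of its 92 Il6 transcripts 78 were from FibΔZeb1 plate 1, and 21 of its 68 Lif transcripts were from 2 wells of FibCtrl plate 4. Osmr was nearly level over the 3 clusters, at 147, 129 and 145 CPM. Il11 was highest in the Mgp cluster at 187 CPM, 69 of its 77 transcripts there being from FibΔZeb1 plate 3.

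Myeloid clusters differed most for Il6. Most macrophages (154 wells, led by Mmp12 and C1qa) had 36.4 CPM of Il6 and 56.5 of Lif. A small cluster led by Serpinb2, Alox15 and Saa3 (20 wells, 15 of them from FibCtrl plate 3) had 1089.6 CPM of Il6 and 452 of Lif, and Il6 itself was among its 10 leading genes. Osm was alike in both, at 655 and 648 CPM. Neutrophils led by Retnlg, S100a8 and S100a9 had 1301 CPM of Osm and 1341 of Socs3, those led by Ccl3 and Cxcl3 had 549 and 375 CPM, and those led by Siglec5 and Mmp9 had 329 and 857.3 CPM. In the Siglec5 cluster Socs3 was 76.9 CPM in 8 wells of FibCtrl plate 3 and 864 to 1343 CPM on the other plates. FibCtrl plate 3 held 6 of the 9 neutrophil class wells rich in mast cell markers.

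**Figure D4:**
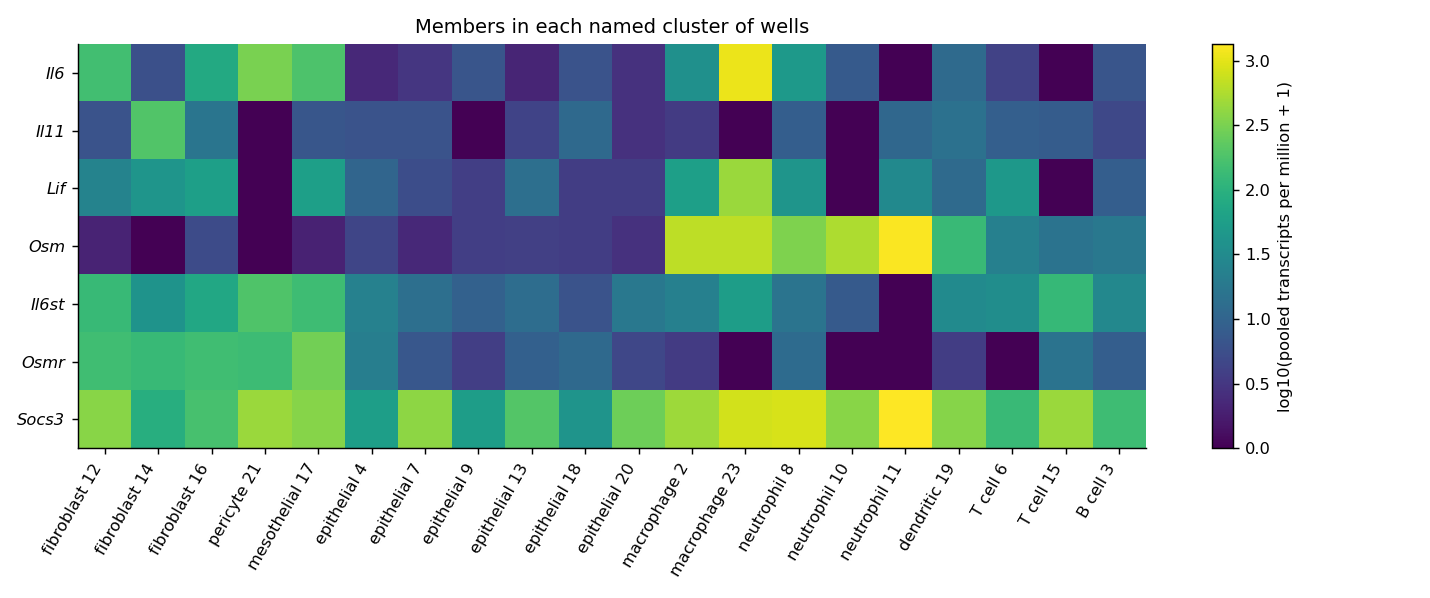
Colour gives log10 of pooled CPM plus 1 for 7 members (rows) in the named clusters of wells (columns, cell class and cluster number). Il6 is brightest in macrophage cluster 23 (1089.6 CPM), Osm and Socs3 in neutrophil cluster 11 (1301 and 1341 CPM), and Osmr in the mesothelial cluster 17 (286 CPM).

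The rest of the pathway was read from 4 lists. Of 15 genes of JAK-STAT signalling, 7 were higher in fibroblasts than in epithelium and none lower, beside 44.8% of all genes called and 23.7% called higher, with Jak1 (1.82 ± 0.17), Socs2 (1.53 ± 0.33) and Socs1 (1.40 ± 0.49) furthest apart on the log2 scale. Their median difference was 0.48, beside -0.05 over all genes. Between fibroblast and immune wells 3 were higher in fibroblasts and 9 lower, beside 44.9% of all genes called, with a median of -0.83, and the largest were Cish (-2.85), Tyk2 (-1.80) and Grb2 (-1.73). Immune wells exceeded epithelium for 11 and fell below it for 1, beside 49.4% of all genes called, with a median of 1.67, among them Cish (2.86) and Jak2 (2.096). Jak1 and Jak2 encode kinases bound to the receptor chains, and Cish and Socs2 are feedback genes known from STAT5.

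STAT3 target genes were counted against the same shares of all genes (44.8%, 44.9% and 49.4%). Of 23 tested, 13 were higher and 2 lower in fibroblasts than in epithelium (median 0.93), with Timp1 (6.17), an inhibitor of matrix proteases, and the acute phase gene Saa3 (4.26) ahead of Tgm2 (2.83). In the comparison with immune wells 4 were higher and 11 lower in fibroblasts (median -0.93), among them Timp1 (4.82), Lrg1 (-4.51) and Birc3 (-2.25). Immune wells exceeded epithelium for 15 and were lower for 2 (median 1.75), with Saa3 (6.87), Lrg1 (5.51) and Icam1 (3.91) largest. Medians over all genes were -0.05, -0.06 and -0.003 in these 3 comparisons.

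Few of the other ligands and receptors could be tested. Ebi3, a subunit of interleukin-27, was lower in fibroblasts than in immune wells (log2 -6.13 ± 0.61) and higher in immune wells than in epithelium (5.44 ± 0.43). Il6ra was lower in fibroblasts than in epithelium (-1.77 ± 0.35) and than in immune wells (-2.07 ± 0.36). Il27ra was higher in fibroblasts than in epithelium (5.80 ± 0.73), lower than in immune wells (-2.09 ± 0.44) and higher in immune wells than in epithelium (7.89 ± 0.61). Adjusted p-values of all genes named here as higher or lower were under 0.05 in edgeR's test, and 1 listed ligand, Il31, had no row in the tables used.

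The genotype comparison asked whether loss of Zeb1 in fibroblasts went with a change of the family in any class. In fibroblasts no member passed the test among 8224 genes, 0.0122% of which (1 gene) did, while 496 genes had an unadjusted p under 0.05 and DESeq2 called 39 genes, with no member among them. Il11 moved most, by 3.48 ± 1.08 (SE) on the log2 scale (edgeR adjusted p = 0.66), and by 1.70 (adjusted p = 0.84) without the well that held most of it. Socs3 had a log2 change of -0.53 ± 0.28 (adjusted p = 0.89), Lif -0.92 ± 0.44 (0.83), Il6 -0.42 ± 0.57 (0.99), Il6st -0.26 ± 0.26 (0.99) and Osmr 0.33 ± 0.29 (0.99). Without FibCtrl plate 1 the change of Il6 turned to 0.67. With no filter on low genes Il11 was called (adjusted p = 1.1e-07), as were 326 of 15200 genes.

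By level, the plates of the genotypes did not overlap for 3 of the 6 members with at least 10 transcripts in fibroblasts, with Il11 higher and Il6st and Socs3 lower on FibΔZeb1 plates. Of all genes with that many transcripts 20.2% did not overlap. For Il6st the nearest plates were 101.2 and 100.8 CPM. The separation of Socs3 and Il6st rested on the minimum of 10 wells. FibCtrl plate 3, with 9 fibroblast wells, had 27.3 CPM of Socs3 from 2 transcripts and 54.7 CPM of Il6st from 4, below all 3 FibΔZeb1 plates used, and with it both genes overlapped. The other plates left out had 515 CPM of Socs3 (FibCtrl 2, 3 wells) and 103 CPM (FibΔZeb1 2, 6 wells). Mean Socs3 was 316 ± 9.85 (SD, n = 2) on FibCtrl and 226 ± 46.1 (n = 3) on FibΔZeb1 plates, with an exact two-sided permutation p of 0.1, the smallest that 2 plates against 3 allow. The difference was -136 CPM on flow cell 1 and -70.2 CPM on flow cell 2. Mean Il11 was 5.31 ± 4.70 against 56.1 ± 64.5 CPM, with an exact permutation p of 0.5.

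The clusters of fibroblasts were not evenly spread over the genotypes, and the part of this in the Socs3 values was not tested. On the plates used, 47 of 71 FibCtrl fibroblast wells and 18 of 57 FibΔZeb1 wells belonged to the Dpt cluster, in which Socs3 was highest. The Mgp cluster, in which it was lowest, held 13 of 71 and 22 of 57. Inside the Dpt cluster Socs3 was 388 and 355 CPM on FibCtrl plates 1 and 4 and 247, 424 and 339 CPM on FibΔZeb1 plates 1, 3 and 4 (3, 6 and 9 wells), and there the genotypes overlapped. Summed over a class, fewer cells of a kind and less RNA per cell cannot be told apart.

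In macrophages none of the 4 tested members passed among 4420 genes, of which 0% (0 genes) did, while 167 had an unadjusted p under 0.05 and DESeq2 called 2 genes. Lif had a log2 change of -2.38 ± 0.82 (edgeR adjusted p = 0.999), Il6 -1.50 ± 1.01, Osm 0.04 ± 0.46 and Socs3 0.19 ± 0.32. Il6 turned to 0.05 without FibCtrl plate 3, and with no filter on low genes Il6 and Lif were called (adjusted p of 0.029 and 1.8e-05). The small Il6-rich cluster supplied 15 of 34 macrophage wells on FibCtrl plate 3, against 0 of 12 and 1 of 18 on FibCtrl plates 1 and 4 and 1 of 57, 0 of 28 and 3 of 19 on FibΔZeb1 plates 1, 3 and 4. It was thus mostly from 1 plate, and without it Il6 and Lif were too low to be tested. In the large macrophage cluster Il6 was 30.6, 39.5 and 28.2 CPM on FibCtrl plates 1, 3 and 4 and 12.1, 3.59 and 95.5 CPM on FibΔZeb1 plates 1, 3 and 4, which overlapped. None of 5 members with at least 10 transcripts separated the genotypes by level, beside 9.12% of all genes.

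Epithelial and neutrophil wells gave no call either. In epithelium 4 members were tested among 10399 genes, 0% of which passed (0 genes, with 195 at an unadjusted p under 0.05 and 1 called by DESeq2). Their log2 changes were -0.28 ± 0.69 for Socs3, 0.69 ± 0.59 for Osmr, -0.78 ± 0.76 for Lif and -0.08 ± 0.35 for Il6st, and that of Socs3 turned to 0.53 without FibCtrl plate 1. In neutrophils Osm (-0.49 ± 0.67) and Socs3 (0.46 ± 0.42) were tested among 1486 genes, 0.0673% of which (1 gene) passed, with 39 at an unadjusted p under 0.05 and 1 called by DESeq2. Without the shallow FibCtrl plate 2, the highest FibCtrl plate for Osm, its change was 0.11. By level none of 7 members separated the genotypes in epithelium (1.61% of all genes did) and none of 4 in neutrophils (3.56%). Of 48 member and class values, the 24 of fibroblasts, macrophages and B cells had too few plates to reach a p of 0.05. Among the 24 others 1 had an exact permutation p under 0.05, Il11 in T cells (3.53, 0 and 0 CPM on FibCtrl plates 1, 3 and 4 against 22.1, 16.1, 17.5 and 23.5 CPM on FibΔZeb1 plates 1 to 4, p = 0.029), which rested on 6 transcripts in 6 wells.

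**Figure D5:**
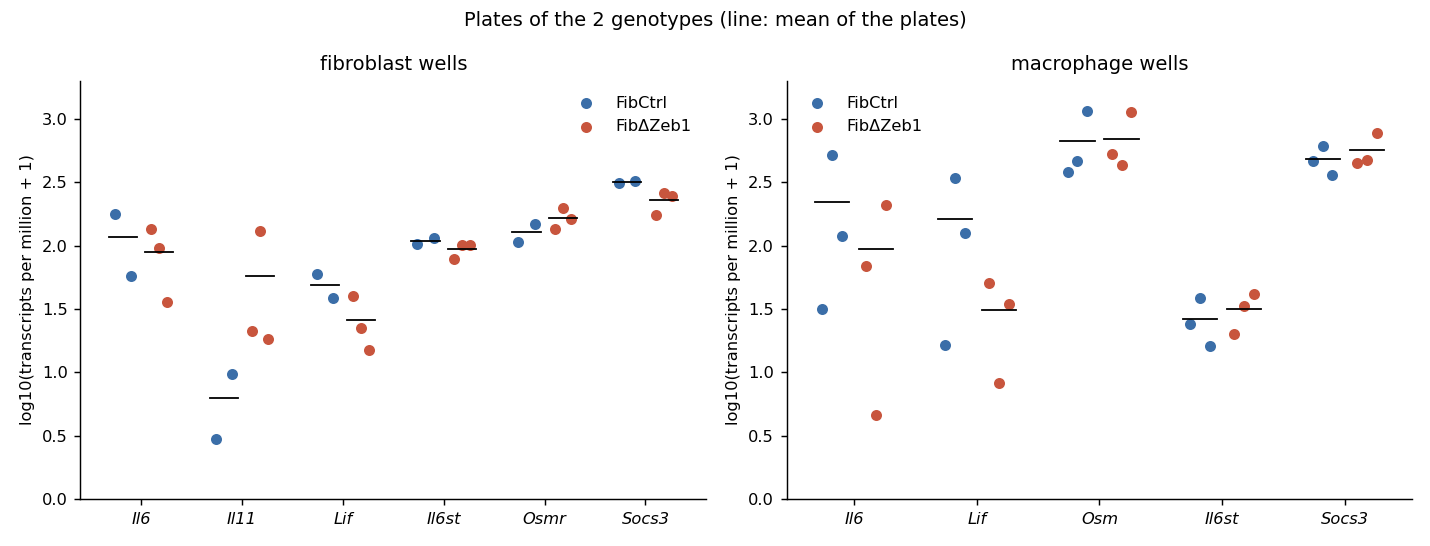
Each point is a plate, in log10 of CPM plus 1, for members in fibroblast (left) and macrophage wells (right), and lines are means over plates. Socs3 in fibroblasts sits at 309 and 323 CPM on FibCtrl and 174 to 258 CPM on FibΔZeb1 plates, and Il11 spreads from 17.4 to 131 CPM on FibΔZeb1 plates.

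Pathway genes in fibroblasts gave no call between the genotypes. Of 22 STAT3 target genes tested, 9 had an unadjusted p under 0.05, a larger share than the 496 of all 8224 genes. The list was not tested as a set. Its median log2 change was -0.68, beside -0.003 over all 8224 genes. The target genes with the smallest p were Saa3 (-5.41 ± 1.09, edgeR adjusted p = 0.24), Timp1 (0.94 ± 0.29, 0.66) and Bcl6 (-1.26 ± 0.39, 0.66). On the JAK-STAT list Socs2 (0.94 ± 0.30), Socs1 (-0.90 ± 0.37) and Ptpn2 had the smallest p, 2 of 13 genes were under 0.05 unadjusted, and the median was -0.05. Of the other receptors, Il27ra (1.61 ± 0.60), Lifr (0.97 ± 0.41) and Il6ra (-1.0 ± 0.57) had the smallest p. No gene of these lists passed in epithelial, macrophage or neutrophil wells.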

How the data were processed

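Single cells of 8 plates, 1 mouse each, were profiled by SORT-seq. The deposited values are estimated counts, which the authors made by aligning reads with BWA to GRCm38 and counting molecular identifiers per gene and well with a correction for collisions, so that 87.1% of values above 0 are whole. Their processing notes also name Cell Ranger 2.1.1. Whether strand was used in counting is not given in the sources used here. Sort gates of single wells were not used here.

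Spike-in rows (89), mitochondrial rows (37) and wells under 500 transcripts or over 3 median absolute deviations of mitochondrial share were left out. Rn45s held 2.66% of transcripts. Counts were scaled to 10000 per well, and 2000 variable genes, without the members and pathway lists, gave 20 components, a graph of 15 neighbours and 23 Leiden clusters (resolution 1; leidenalg 0.10.2, igraph 0.11.9, scikit-learn 1.9.0, scipy 1.17.1, numpy 2.4.6, Python 3.11.15). Clusters were named from marker lists where a marker score reached 0.5 with at least 3 markers found in 10% of wells. A part of this naming rule was set after marker values were seen and before member values were. Wells with at least 2 Ptprc or Epcam transcripts were taken out of the fibroblast class (36 wells). Pericyte and mesothelial wells were not filtered in this way. With 1 cell sorted per well, no doublet caller was run.

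Counts were summed per class and plate, rounded, and tested with edgeR 4.0.16 (quasi-likelihood, TMM, filterByExpr; limma 3.58.1, R 4.3.3), adjusted by Benjamini-Hochberg over all genes with a threshold of 0.05. DESeq2 1.42.0 was an alternative. The SE is the log2 change divided by the square root of F. Plates are separate mice. Single values were tested by exact permutation over plates, two-sided. Intervals are 95% Poisson intervals, and a count of 0 allows 3 counts; both cover counting error only. Likeness used log2(CPM + 10) of genes reaching 20 CPM. Mast-rich wells held at least 100 mast marker transcripts and more of these than of neutrophil markers. Scripts were tested on simulated data.

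The members and lists were chosen with earlier results of these data known. All members were described in every class. Of the pathway lists, the text names genes called between genotypes, otherwise the 3 with the smallest p in fibroblasts, and the 3 called genes of each list with the largest change between compartments. Some genes that this rule selects are not reported here. Promoter windows and gene positions come from RefSeq (GRCm38.p6) and GENCODE (GRCm38).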

Additional observations from a re-analysis of the deposited data

Results flagged for a closer look

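Of 28 groups of 4 plates, 6 had a plate far from the other 3. Chance gives about 1 in 20 groups, a rate that holds for continuous values and not for 1 transcript against 0. Osm in neutrophil wells was 1795 CPM on FibΔZeb1 plate 2, from 91 transcripts, and 254 to 497 CPM on the other FibΔZeb1 plates. Il6st in epithelial wells was 22.8 CPM on FibΔZeb1 plate 3, from 58 transcripts, and 11.2 to 12.9 CPM on the others. The remaining 4 rested on 1 transcript each, with 0 on the other 3 plates. They were Clcf1 in epithelial wells of FibΔZeb1 plate 2 (0.624 CPM), Il6 in neutrophil wells of FibΔZeb1 plate 1 (23.1 CPM), Lif in T cell wells of FibΔZeb1 plate 1 (11.04 CPM) and Osmr in T cell wells of FibΔZeb1 plate 3 (17.5 CPM).

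Some signal lay outside the comparisons. The 321 wells without a class held 49 Socs3, 15 Osm, 12 Lif, 11 Osmr, 9 Il11 and 7 Il6st transcripts. A further 36 fibroblast wells, 22 of them on FibCtrl plate 1, were taken out for Ptprc or Epcam transcripts. Of 1170 Il6 transcripts in all wells, 1018 were in wells with a class, 2 in wells without one and 4 in filtered wells. For Socs3 these numbers were 6750, 6314, 49 and 93. The rest of both genes lay in the 36 wells. On plates with too few wells of a class, Socs3 was 515 CPM in 3 fibroblast wells of FibCtrl plate 2, against 174 to 323 CPM on the plates used. It was 27.3 CPM, from 2 transcripts, in 9 fibroblast wells of FibCtrl plate 3, and 103 CPM in 6 of FibΔZeb1 plate 2. In macrophages it was 1360.3 CPM in 5 wells of FibΔZeb1 plate 2, against 362 to 774 CPM.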

How the results depend on the processing

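With all plates kept, the counts of called members stayed within 1.5 times of the reported counts except for 3 counts under 2 settings, and the cause was not tested. With no filter on low genes, 1 member was called between genotypes in fibroblasts (Il11) and 2 in macrophages (Il6 and Lif), and without the mitochondrial filter 2 members were called between immune and epithelial wells, on 2 FibCtrl plates alone. Without that filter no FibΔZeb1 plate held 10 fibroblast wells, so the genotype fit in fibroblasts could not be made. Outside plate omissions, Il6 turned to 0.25 in fibroblasts with Ptprc and Epcam wells kept, Lif between fibroblast and immune wells to -0.019 with at least 5 wells per plate, and Socs3 there to 0.47 without the mitochondrial filter. Other settings left 134 of 138 genotype and 134 of 144 compartment log2 changes with the same direction and call.

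Leaving out each plate gave 0 calls between genotypes in all 4 classes, 4 for fibroblast against epithelial, 3 to 4 for fibroblast against immune and 4 to 5 for immune against epithelial wells, and 0 to 1 exact p under 0.05 among the members and classes, since T cells, with a plate left out, have too few plates to reach 0.05. A lone plate left in a genotype was assumed to vary like the others. Log2 changes that turned sign ranged from -1.001 to 0.67 (Il6, fibroblast), -0.33 to 0.067 (Il6st, epithelial), -0.94 to 0.53 (Socs3, epithelial), -2.51 to 0.050 (Il6, macrophage), -0.48 to 0.65 (Osm, macrophage), -0.089 to 0.45 (Socs3, macrophage), -1.63 to 0.11 (Osm, neutrophil), -0.30 to 0.79 (Osm, fibroblast against epithelial) and -0.16 to 1.19 (Lif, fibroblast against immune).

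Same-numbered plates of the genotypes correlated at 0.638, 0.359, 0.110 and 0.018 over 4124 genes in epithelial wells, and FibCtrl plate 4 was most like FibΔZeb1 plate 3 (0.454), so the numbers were not taken as pairs. With the replicate block, 0 members were called in each of the 4 classes, Il11 in fibroblasts changed by 2.02 (adjusted p = 0.38) and Socs3 by -0.65 (0.69). Over all genes in fibroblasts, the block called 25, the flow cell as covariate 28, DESeq2 39 and no filter 326, against 1, and 0 to 4 with a plate left out. No filter called 44 genes in macrophages and 41 in neutrophils, where leaving out FibCtrl plate 2 called 5. Without the mitochondrial filter 2547, 2665 and 2553 genes were called between compartments, against 4315, 4323 and 4756. Levels without Rn45s and ribosomal protein genes moved by less than 1 SD between plates for 62 of 63 values, and thinning moved 40 of 63 shares of wells. Clcf1, with 2 transcripts in all wells, passed the filter on low genes in none of the 4 classes compared between genotypes, and neutrophil wells held a median of 1927 transcripts.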
